A study of Mus musculus with 4 samples.

Results

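The nuclear genes of oxidative phosphorylation are described here in whole testes of control and Mps1sKO mice at P10. They were chosen by name only: a gene of the deposited table belonged to the group if its name began with *Nduf* followed by a, b, c, s or v, with *Uqcr* or with *Atp5*, if it was *Sdha*, *Sdhb*, *Sdhc* or *Sdhd*, or if it began with *Cox* followed by a number from 4 to 8 and a letter. Names containing -ps were left out. The rule found 98 of the 55820 loci in the table, after 9 of 107 matches were removed for such a name. No expression value entered this rule, though the group was chosen with earlier results of these data known. Of the 98, 84 were subunits, 8 were assembly factors of complex I whose names begin with *Ndufaf*, 2 were other factors (*Atp5s* and *Cox7a2l*) and 4 were annotated pseudogenes without -ps in the name.

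Oxidative phosphorylation is carried out by 5 protein complexes of the inner mitochondrial membrane. Complex I takes electrons from NADH and complex II takes them from succinate. Complex III passes them to cytochrome c, and complex IV, the cytochrome c oxidase, hands them to oxygen. ATP synthase uses the proton gradient built on the way to make ATP. Most subunits are encoded in the nucleus and a few in the mitochondrial genome, so the chain needs both sets. Some subunits of complex IV exist in tissue forms. *Cox6b2*, *Cox7b2* and *Cox8c* are known as testis forms of *Cox6b1*, *Cox7b* and *Cox8a*, and their products are a feature of male germ cells. Sertoli cells, the nurse cells of the tubule, rely largely on glycolysis and supply lactate, whereas meiotic germ cells rely more on respiration.

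The control group held 2 libraries and the Mps1sKO group held 2, each from whole testis of male C57BL/6J mice at P10. The Mps1sKO mice lacked *Mps1* (gene symbol *Ttk*, a kinase of the spindle assembly checkpoint) in germ cells, through a Cre recombinase driven by the *Stra8* promoter, which acts from early spermatogonia onwards. By this design the other cells of the testis keep the gene, and the labels give no further allele for the control mice. Whether a library came from 1 animal or a pool was not given in the sources used here, so p-values measure the spread between these libraries only. The libraries held 26819122 and 28607746 counts (control 1 and 2) and 23311689 and 27093849 counts (Mps1sKO 1 and 2). Levels are given as CPM, the counts of a gene per 1000000 counts of its library, after TMM scaling of the library sizes. *Ttk* was at 27.9 and 32.6 CPM in the controls and at 13.0 and 12.2 CPM in the Mps1sKO libraries, a log2 fold change of -1.26 with adjusted p = 0.0461 in edgeR's quasi-likelihood test. A whole testis mixes cell types, so fewer cells of a type and less RNA per cell cannot be told apart.

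No member passed the threshold once p was adjusted over all tested loci, and the oxidative phosphorylation genes as a group lay close to the control level. Of the 98 members, 93 passed the filter on low counts and were tested. The quasi-likelihood test of edgeR with Benjamini-Hochberg adjustment called 0 of these 93, against 0.0292% of all 20561 tested loci (6 loci), and the smallest adjusted p among the members was 0.494. DESeq2 also called 0 members. At an unadjusted p below 0.05, 6 of 93 (6.45%) were lower in Mps1sKO testes, against 5.37% of all tested loci, and 0 were higher, against 3.92% of all tested loci. In this edgeR fit the share of lower members was close to the background. With DESeq2, 5 of 97 fitted members were lower at an unadjusted p below 0.05, against 1.69% of all loci it fitted. Those loci were not filtered on low counts.

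The direction was mostly downwards and small. The log2 fold change was negative for 64 of 93 members and positive for 29, and 75 of 93 lay within 0.25 of zero. The median was -0.06 (log2) against 0.00 for all tested loci. Both Mps1sKO libraries lay below both controls for 30 members (32.3%), against 21.1% of all tested loci. Both lay above for 9 members (9.68%), against 20.3% of all tested loci, and the groups overlapped for the other 54.

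One library set much of this direction. The members took 0.762% and 0.759% of all counts in the controls, 0.676% in Mps1sKO 1 and 0.757% in Mps1sKO 2, so only Mps1sKO 1 stood apart. It was lower than Mps1sKO 2 for 74 of 93 members, with a median log2 ratio of -0.18 between these libraries, whereas the median over all tested loci was 0.00. The controls were close to each other, with a median log2 ratio of 0.00 for the members. Without Mps1sKO 1 the members' median log2 fold change was 0.01 and 43 of 93 were negative. Without Mps1sKO 2 the median was -0.14 and 75 were negative, 28 members passed an unadjusted p below 0.05 as lower (5.62% of all loci did in that fit), and 2 of them, *Ndufa1* and *Uqcr11*, passed the adjusted threshold, as did 0.163% of all loci. Each of these fits compared 3 libraries and assumed that the lone library varied like the other group.

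**Figure D1:**
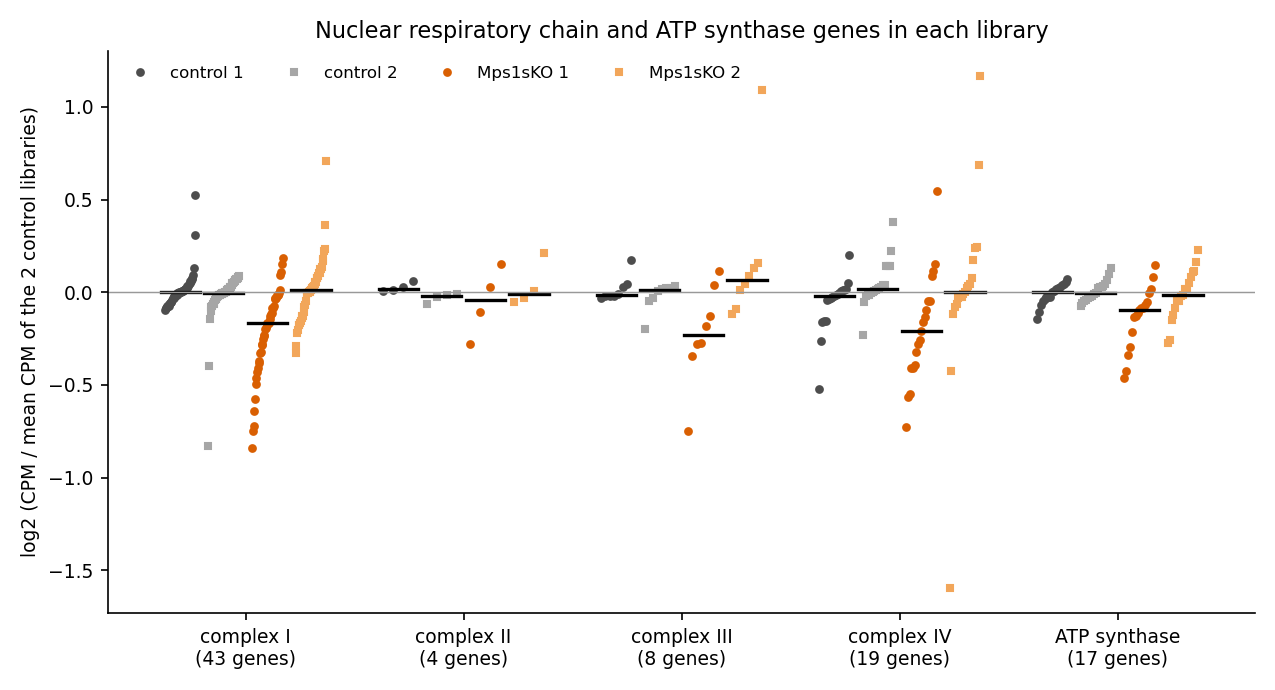
Each point is 1 tested gene in 1 library, plotted as the log2 of its CPM over the mean CPM of the 2 control libraries, for complexes I to IV and ATP synthase, with black bars at the median of each library. The medians of Mps1sKO 1 were below zero in every complex (-0.17 in complex I, -0.04 in complex II, -0.23 in complex III, -0.21 in complex IV and -0.09 in ATP synthase), whereas those of Mps1sKO 2 lay between -0.02 and 0.07.

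**Figure D2:**
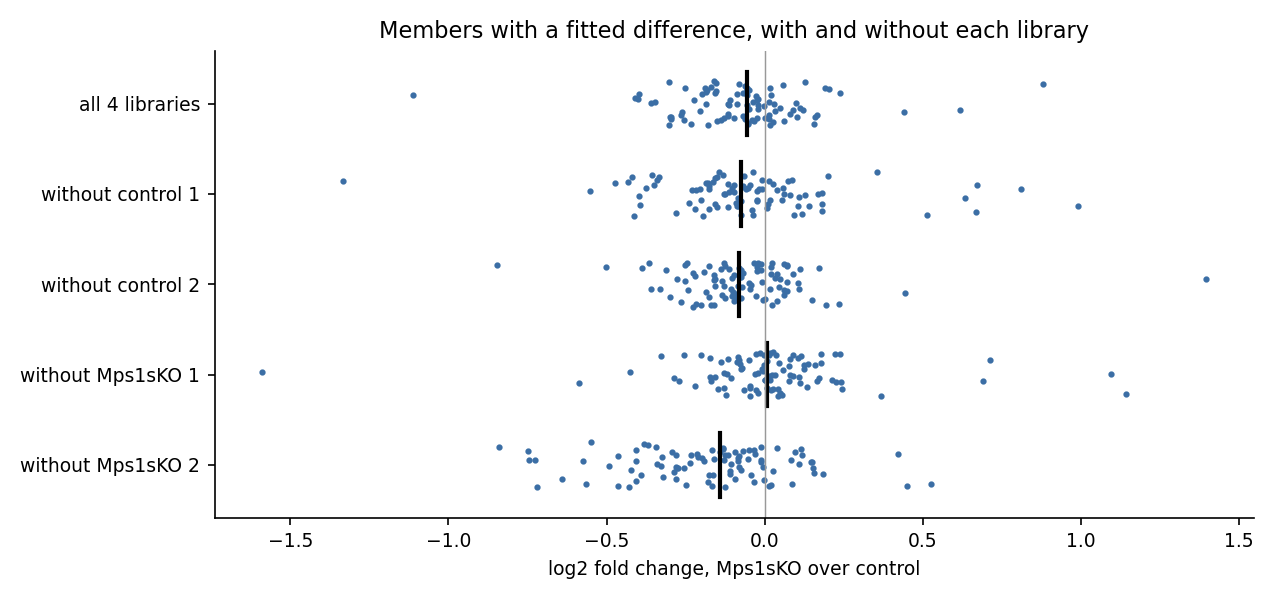
Each point is the log2 fold change (Mps1sKO over control) of 1 of the 93 tested members, in the fit on all 4 libraries and in the fits without each library, with black bars at the medians; vertical scatter within a row carries no value. The median lay at -0.06 with all libraries, at 0.01 without Mps1sKO 1 and at -0.14 without Mps1sKO 2.

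The lower values in Mps1sKO 1 moved with gene length in the table. This length covers all annotated exons of a gene and can exceed that of its transcripts, which also affects levels per kb. Among the 93 members, the log2 ratio of Mps1sKO 1 to Mps1sKO 2 had a Spearman rho of 0.29 with gene length, against 0.10 over all tested loci. The log2 ratio of control 1 to control 2 also had a positive rho with gene length, 0.19 among the members and 0.01 over all tested loci. Genes of a library share its depth, so this is a description. The 25 members shorter than 1000 bases had a median ratio of -0.28, the 36 members from 1000 to 2000 bases -0.21, and the 32 longer members -0.09. All 2484 tested loci shorter than 1000 bases had a median ratio of -0.04. For the log2 fold change itself, the short members had a median of -0.15, the middle ones -0.07 and the long ones -0.02, whereas all short loci had -0.05. The part of gene length in these values was not tested.

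**Figure D3:**
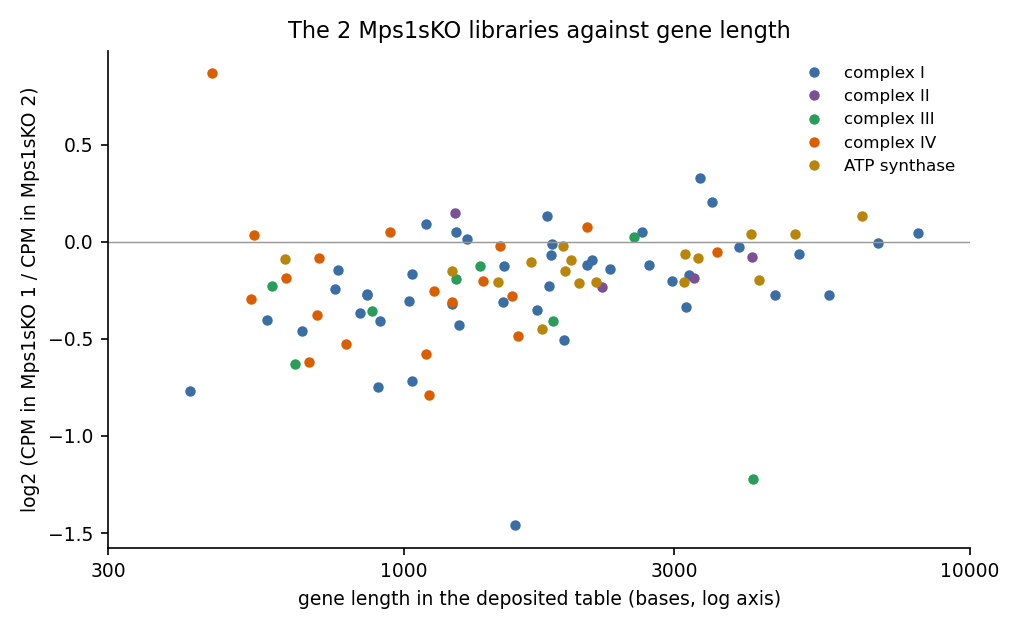
The log2 ratio of CPM in Mps1sKO 1 to CPM in Mps1sKO 2 is plotted against gene length (bases, log axis) for each tested gene of the 5 complexes. Most points lie below zero, in particular among short genes, and 74 of the 93 tested members were lower in Mps1sKO 1.

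Complex I was the largest set, with 44 members, of which 43 were tested. The log2 fold change was negative for 31 and positive for 12, with a median of -0.08, and 0 passed the adjusted threshold. Its 29 accessory subunits, which surround the catalytic core, had a median of -0.09 (22 negative), its 6 tested core subunits -0.05 (5 negative) and its 8 assembly factors -0.09 (4 negative). Without Mps1sKO 1 these medians were 0.03, -0.02 and -0.06. *Ndufa2*, a small accessory subunit, had the highest level of the complex per kb of gene length, at 127 CPM per kb over the 4 libraries. Its CPM was 78.3 and 85.1 in the controls and 54.8 and 72.4 in Mps1sKO 1 and 2. Both Mps1sKO values were below both controls, with a log2 fold change of -0.36 (SE 0.14, edgeR adjusted p = 0.516). It was -0.17 without Mps1sKO 1 and -0.58 without Mps1sKO 2.

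*Ndufa3*, another accessory subunit, was at 73.3 and 81.2 CPM in the controls and at 56.0 and 69.3 CPM in Mps1sKO testes, again without overlap (log2 fold change -0.30, SE 0.12, edgeR adjusted p = 0.526). Its log2 fold change was -0.16 without Mps1sKO 1 and -0.46 without Mps1sKO 2. *Ndufaf3*, an assembly factor of complex I, was at 8.54 and 8.60 CPM in the controls and at 9.54 and 10.0 CPM in Mps1sKO testes (log2 fold change 0.19, edgeR adjusted p = 0.696). Among the 43 tested genes of the complex, the accessory subunit *Ndufb2* had the lowest level per kb, at 2.0 CPM per kb. It was at 12.0 and 10.7 CPM in the controls and at 10.1 and 12.2 CPM in Mps1sKO testes. Its groups overlapped. Its annotated exons cover 5628 bases, and the part of this length in its low level per kb was not tested.

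Some complex I genes were chosen after their values were seen, because a single library decided them. *Ndufa1*, an X-linked accessory subunit, was at 34.4 and 37.9 CPM in the controls, at 20.2 CPM in Mps1sKO 1 and at 34.4 CPM in Mps1sKO 2. Its log2 fold change was -0.40 (SE 0.22), and -0.07 without Mps1sKO 1. *Ndufs6*, which carries a zinc site, was at 51.3 and 50.2 CPM, then at 30.8 and 51.7 CPM. Only Mps1sKO 1 was low for both genes. *Ndufa12* split both groups, with 27.0 and 10.6 CPM in the controls and 11.2 and 30.7 CPM in Mps1sKO testes, so its log2 fold change of 0.17 had an SE of 0.51. *Ndufs5* was at 57.6 and 35.3 CPM against 49.6 and 59.8 CPM, with control 2 the low library.

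Complex II, which is also an enzyme of the TCA cycle, had 4 members, all tested, with 2 negative and 2 positive values and a median of 0.01 (-0.04 to 0.02 with 1 library left out). *Sdhd*, a membrane anchor, had the highest level at 73.0 CPM per kb, with 87.8 and 86.7 CPM in the controls and 97.0 and 87.6 CPM in Mps1sKO testes. *Sdhc*, the other anchor, had the lowest at 23.8 CPM per kb, with 77.1 and 70.9 CPM against 75.4 and 85.6 CPM. The groups overlapped for both. The catalytic subunit *Sdha* and the iron-sulfur subunit *Sdhb* had log2 fold changes of -0.07 and -0.16, with both Mps1sKO libraries below both controls.

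Complex III had 8 members, all tested, 5 of them negative, with a median of -0.06 that was 0.07 without Mps1sKO 1. *Uqcr10*, a small subunit, had the highest level at 100.4 CPM per kb, with 61.8 and 58.1 CPM in the controls and 52.9 and 61.8 CPM in Mps1sKO testes, which overlapped. *Uqcrc1*, a large structural subunit, had the lowest at 1.30 CPM per kb, against a median of 60.4 for the complex. It was at 4.79 and 3.71 CPM in the controls and at 3.88 and 9.07 CPM in Mps1sKO testes, so that a single library, Mps1sKO 2, was high. Its log2 fold change of 0.62 (SE 0.36, edgeR adjusted p = 0.620) was -0.13 without that library. Whether all reads of *Uqcrc1* were counted in its row was not tested, so its low level is uncertain. *Uqcr11*, chosen after its values were seen, was at 68.7 and 71.9 CPM in the controls and at 41.9 and 64.8 CPM in Mps1sKO 1 and 2. Its log2 fold change was -0.40 (SE 0.18, edgeR adjusted p = 0.556), and -0.12 without Mps1sKO 1.

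ATP synthase had 18 member rows, of which 17 were tested, 12 negative and 5 positive, with a median of -0.03. *Atp5b*, the catalytic beta subunit, had the highest level of the complex at 191 CPM per kb, with 819 and 793 CPM in the controls and 761 and 872 CPM in Mps1sKO testes. The alpha subunit *Atp5a1*, its partner in the catalytic head, was the lowest of the 17 tested rows at 6.45 CPM per kb, with 18.6 and 22.6 CPM against 19.4 and 20.3 CPM. Neither differed between the groups beyond the spread of their libraries. The median of the tested ATP synthase rows was 55.8 CPM per kb. Whether all reads of *Atp5a1* were counted in its row was not tested, so its low level is uncertain. *Atp5c1*, the central stalk, was at 261 and 245 CPM in the controls and at 280 and 284 CPM in Mps1sKO testes, with a log2 fold change of 0.16 (SE 0.09, edgeR adjusted p = 0.606). It had the smallest unadjusted p of the positive members.

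*Atp5mpl*, a small protein bound to the membrane part of ATP synthase, had the smallest unadjusted p of all members. It was at 72.4 and 79.6 CPM in the controls and at 56.6 and 62.9 CPM in Mps1sKO testes, 76.0 ± 5.1 against 59.8 ± 4.5 CPM (SD, n = 2 each). The groups did not overlap, and the log2 fold change was -0.35 (SE 0.10, edgeR adjusted p = 0.494), between -0.42 and -0.27 with 1 library left out. *Atp5k*, the e subunit of the membrane part, was at 37.1 and 42.8 CPM in the controls and at 31.5 and 33.5 CPM in Mps1sKO testes (log2 fold change -0.30, SE 0.11, edgeR adjusted p = 0.514). Without control 2 its log2 fold change was -0.19. Both Mps1sKO libraries were below both controls for these genes.

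Complex IV had 20 members, of which 19 were tested, 13 negative and 6 positive, with a median of -0.05 that was 0.00 without Mps1sKO 1. Its 11 common subunits with a fitted value had log2 fold changes from -0.30 to 0.11. *Cox6a1* had the highest level per kb of all members, at 290.7 CPM per kb, with 220 and 217 CPM in the controls and 165 and 214 CPM in Mps1sKO testes. *Cox4i1*, a regulatory subunit of the oxidase, was at 286 and 267 CPM against 232 and 281 CPM, *Cox7a2* at 71.6 and 71.8 against 76.2 and 73.4 CPM, and *Ndufa4*, once counted in complex I, at 88.3 and 86.1 against 78.0 and 89.8 CPM. For *Cox6a1*, *Cox4i1* and *Ndufa4*, Mps1sKO 1 was the lowest library.

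Of the muscle, lung and low-oxygen forms of complex IV, *Cox7a1* had the highest level, and the others were at most 3.02 CPM. *Cox7a1* made up 16.3% and 19.3% of the sum with *Cox7a2* per kb in the controls and 13.3% and 16.4% in Mps1sKO testes. The testis form *Cox6b2* made up 10.7% to 16.4% of its pair. *Cox7a1*, the heart and skeletal muscle form of *Cox7a2*, was at 7.91 and 9.71 CPM in the controls and at 6.65 and 8.14 CPM in Mps1sKO testes (log2 fold change -0.25, edgeR adjusted p = 0.681, and -0.10 without control 2). *Cox4i2*, the lung form, was at 1.41 and 1.73 against 1.29 and 1.87 CPM, and *Ndufa4l2*, a form induced by low oxygen, at 2.15 and 1.59 against 2.03 and 3.02 CPM. *Cox6a2*, the muscle form of *Cox6a1*, had only 5, 10, 9 and 16 counts, with a log2 fold change of 0.88 (SE 0.53, edgeR adjusted p = 0.625) that was 0.51 without control 1 and 1.40 without control 2. *Cox8b*, the muscle form of *Cox8a*, had 5, 5, 1 and 4 counts and was not tested. A count of 3 was 0.104 to 0.129 CPM in these libraries.

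The testis forms of complex IV were compared with their common counterparts. The testis forms are known from germ cells, the cells in which *Mps1* was deleted. Which cells held them in these testes was not tested. *Cox8c* and *Cox7b2* lay below the controls in both Mps1sKO libraries, at an unadjusted p below 0.05, whereas *Cox6b2* did not, and the common forms were near the control level. *Cox8c* was at 1.78 and 2.50 CPM in the controls and at 1.29 and 0.709 CPM in Mps1sKO testes, from 48, 72, 30 and 19 counts. The groups did not overlap. Its log2 fold change was -1.11 (SE 0.35, edgeR adjusted p = 0.497), the lowest of all tested members, and between -1.59 and -0.72 with 1 library left out. With no filter on low counts, which put more low loci into the fit, the adjusted p was 0.0286.

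*Cox7b2* was at 7.91 and 9.74 CPM in the controls and at 6.73 and 6.57 CPM in Mps1sKO testes, 8.83 ± 1.30 against 6.65 ± 0.12 CPM (SD, n = 2 each). Its groups did not overlap and its log2 fold change was -0.41 (SE 0.17, edgeR adjusted p = 0.529), -0.55 without control 1 and -0.25 without control 2. *Cox6b2* was at 20.2 and 20.7 CPM in the controls, at 14.0 CPM in Mps1sKO 1 and at 24.2 CPM in Mps1sKO 2. The Mps1sKO libraries fell on either side of the controls, and the log2 fold change of -0.10 (SE 0.23) was 0.24 without Mps1sKO 1.

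The common forms moved little. *Cox8a* was at 144 and 147 CPM in the controls and at 126 and 143 CPM in Mps1sKO testes (log2 fold change -0.12). *Cox7b*, which is X-linked, was at 36.3 and 38.3 against 34.1 and 42.2 CPM (0.03), and *Cox6b1* at 77.6 and 81.1 against 74.3 and 78.8 CPM (-0.05). Each had an edgeR adjusted p of at least 0.727.

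Per kb of gene length, the testis form was the lesser part of each pair in every library. *Cox7b2* made up 32.8% and 36.3% of the *Cox7b2* and *Cox7b* sum in the controls and 30.7% and 25.9% in Mps1sKO testes. *Cox8c* made up 1.64% and 2.25% of its pair in the controls, and 1.37% and 0.666% in Mps1sKO testes. *Cox6b2* made up 14.3% and 14.0%, then 10.7% and 16.4%. The log2 ratio of testis to common form differed between the genotypes (Mps1sKO minus control) by -1.02 for *Cox8c* to *Cox8a*, by -0.42 for *Cox7b2* to *Cox7b* and by -0.10 for *Cox6b2* to *Cox6b1*. In a two-sided exact permutation test over the 4 libraries, p was 0.333, 0.333 and 1, and 0.5, 0.5 and 1 after Benjamini-Hochberg adjustment over the 3 pairs. With 2 libraries against 2, the smallest p that this test can give is 0.333, so no difference between these ratios could pass.

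**Figure D4:**
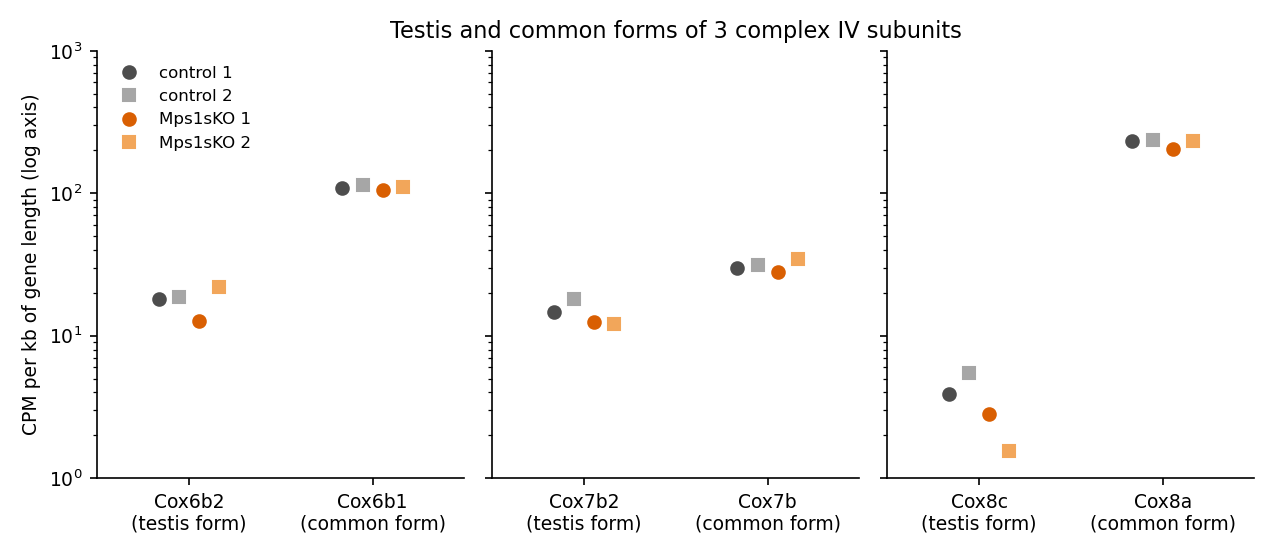
CPM per kb of gene length (log axis) is shown for the testis form and the common form of 3 complex IV subunits, with 1 point for each of the 4 libraries. *Cox8c* and *Cox7b2* were lower in both Mps1sKO libraries than in both controls, the 2 Mps1sKO libraries lay on either side of the controls for *Cox6b2*, and the common forms differed little between the libraries.

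The sequences before the start sites of 2 of these pairs are shown because each pair holds a testis form and a common form of the same subunit. They are RefSeq promoter sequences of build GRCm38.p6, 5′ to 3′ on the gene's strand, and end just before the start of transcription. For *Cox6b1*, the last 37 bases of the window are left out because another annotated start lies before them. Capitals mark every match to 1 of the searched words, on both strands. These words were GCATGCGC (from the NRF1 motif), CGGAAG (the ETS word), AAGATGGC (the YY1 motif), CCAAT and TATAAA. The ETS word is only 1 form of the site bound by ETS factors such as GABPA, and other forms were not searched. The stretches are chr7:4753095-4753344 for *Cox6b2*, chr7:30626152-30626364 for *Cox6b1* and chr5:71548206-71548455 for *Cox7b2*, all on the minus strand, and chrX:106015450-106015699 on the plus strand for *Cox7b*.
Cox6b2: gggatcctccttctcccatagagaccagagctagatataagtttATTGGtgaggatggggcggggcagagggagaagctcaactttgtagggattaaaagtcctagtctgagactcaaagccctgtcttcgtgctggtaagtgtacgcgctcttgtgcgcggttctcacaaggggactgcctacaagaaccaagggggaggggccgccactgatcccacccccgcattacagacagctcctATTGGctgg
Cox6b1: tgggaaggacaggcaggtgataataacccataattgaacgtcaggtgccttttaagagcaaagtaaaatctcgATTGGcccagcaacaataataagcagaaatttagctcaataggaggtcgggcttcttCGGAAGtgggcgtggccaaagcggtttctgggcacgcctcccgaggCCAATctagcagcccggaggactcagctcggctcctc
Cox7b2: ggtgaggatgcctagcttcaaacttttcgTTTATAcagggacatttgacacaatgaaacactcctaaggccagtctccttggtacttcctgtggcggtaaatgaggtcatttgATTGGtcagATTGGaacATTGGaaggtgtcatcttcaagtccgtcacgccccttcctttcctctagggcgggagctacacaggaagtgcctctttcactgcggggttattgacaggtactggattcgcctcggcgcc
Cox7b: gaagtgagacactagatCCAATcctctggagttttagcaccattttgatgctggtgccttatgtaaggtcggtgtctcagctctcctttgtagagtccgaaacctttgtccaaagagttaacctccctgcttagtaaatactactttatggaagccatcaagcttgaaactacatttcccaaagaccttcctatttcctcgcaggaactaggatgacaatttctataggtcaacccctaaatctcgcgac

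The ETS word CGGAAG stood in the window of *Cox6b1*, once in the stretch shown and once in the bases left out. This word had no match in the other 3 windows, which may hold other forms of the site. The CCAAT word was matched in all 4 windows, with 3 matches in *Cox7b2*, which also held the reverse complement of TATAAA. No NRF1 or YY1 word was in these windows. Of the 97 distinct member names, 76 had a promoter in the RefSeq table, 2 of them under a newer name. In the 250 bases before the start, the ETS word was found in 27 of 76 members (35.5%) against 15.3% of all 27025 genes in the table. The NRF1 word was found in 9 (11.8%) against 2.56%. CCAAT was found in 34 (44.7%) against 37.5%, TATAAA in 6 (7.89%) against 14.3%, and the YY1 word in 1 (1.32%) against 1.83%. When 50 bases after the start were added, the YY1 word was in 11 of 76 (14.5%) against 3.19%. The member promoters had a median GC content of 57.2% against 52.4% in the table. Their median number of CpG (a C followed by a G) was 15 against 6. The ETS word and the NRF1 word each hold a CpG, and the part of CpG content in their shares was not tested. The 26 tested members with an ETS word had a median log2 fold change of -0.05 and the 48 without it -0.08. The values for the NRF1 word were -0.12 (9 members) and -0.06 (65 members). A match to these letters is a description of the sequence and not a bound site.

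The chain subunits encoded in the mitochondrial genome, which join the members in complexes I, III, IV and V, had a lower median than the members. All 13 were tested, and 11 had a negative log2 fold change. Both Mps1sKO libraries lay below both controls for 9 (69.2%), against 21.1% of all tested loci. At an unadjusted p below 0.05 in edgeR, 7 (53.8%) were lower, against the 5.37% of all tested loci given above. None passed the adjusted threshold in edgeR. All genes with names beginning in mt- took 2.80% and 3.14% of the counts in the controls and 2.62% and 2.52% in Mps1sKO 1 and 2. The 13 subunit genes share 1 genome and may not vary independently, so their shares are a description. Their median was -0.22. It was -0.25 without Mps1sKO 1, -0.21 without Mps1sKO 2, -0.31 without control 1 and -0.14 without control 2. *mt-Atp6*, a membrane subunit of ATP synthase, had the smallest p, with 101 and 76.5 CPM in the controls and 44.9 and 44.3 CPM in Mps1sKO testes (log2 fold change -0.996, edgeR adjusted p = 0.293). *mt-Atp8*, which neighbours it, had the lowest value (-1.41), at 2.79 and 1.77 against 0.604 and 1.08 CPM, and *mt-Co3* the highest (0.32), at 50.8 and 55.2 against 49.4 and 83.1 CPM. Some of these genes, such as *mt-Co2* and *mt-Co3*, were far below *mt-Co1* in every library, and nuclear copies of mitochondrial sequence can take or exclude their reads, so their values are uncertain.

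Assembly factors outside the rule were near the control level. Of 35, 33 were tested, 20 negative and 13 positive, with a median of -0.02. *Uqcc2*, needed for complex III, had the lowest value, with 76.9 and 81.3 CPM in the controls and 51.9 and 67.6 CPM in Mps1sKO testes (log2 fold change -0.40, edgeR adjusted p = 0.497), and *Uqcc1*, its partner, the highest (0.19). The 12 regulators of mitochondrial genes had a median of -0.02 (0.05 without control 1, -0.07 without control 2) and log2 fold changes from -0.23 (*Ppargc1a*, the coactivator of mitochondrial biogenesis) to 0.07 (*Yy1*).

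The neighbouring pathways had small positive medians. Of the 13 genes of the TCA cycle, 10 were positive, with a median of 0.09 and values from -0.10 (*Mdh2*, malate dehydrogenase) to 0.24 (*Suclg2*, edgeR adjusted p = 0.515). Of the 15 glycolytic genes, 12 were positive, with a median of 0.12 (0.07 without control 2, 0.08 without Mps1sKO 2) and values from -0.25 (*Gpi1*, glucose phosphate isomerase) to 0.30 (*Pgam1*, phosphoglycerate mutase, edgeR adjusted p = 0.497). None of these genes passed the adjusted threshold. In the 6 carriers and cytochromes c, *Slc25a31*, the germ cell form of the ATP carrier, was at 6.61 and 4.78 CPM in the controls and at 2.72 and 2.61 CPM in Mps1sKO testes, without overlap (log2 fold change -1.09, edgeR adjusted p = 0.494). *Slc25a5*, a common form of that carrier, was at 200 and 203 against 251 and 247 CPM (log2 fold change 0.30, edgeR adjusted p = 0.494). *Cyct*, the testis cytochrome c, was at 8.06 and 10.8 against 7.64 and 6.94 CPM (log2 fold change -0.37, edgeR adjusted p = 0.583). Of 9 testis forms of energy enzymes, 5 were tested, 2 of them negative (*Slc25a31* and *Cyct*), and *Gapdhs* had the highest value (0.27).

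The markers of germ cells moved in the same direction as *Cox8c* and *Cox7b2*. For *Cox6b2*, the Mps1sKO libraries fell on either side of the controls. Of the 5 tested testis forms of energy enzymes, 2 were negative and 3 positive. All 12 germ cell markers were negative, with log2 fold changes from -0.79 to -0.24 and a median of -0.50, and their summed level was 1768 and 2041 CPM in the controls and 1502 and 1304 CPM in Mps1sKO testes. The 7 tested of 8 Sertoli markers were all positive, with a median of 0.26 and a summed level of 2955 and 2532 against 3042 and 3718 CPM. Both Mps1sKO libraries were above both controls for 3 of the 7 (42.9%), against 20.3% of all tested loci. The Sertoli median was 0.45 without control 1 and 0.15 without control 2 or without Mps1sKO 2. Of 8 markers of later germ cells, 3 were tested, and their summed level was 1.9 to 3.1 CPM. The part of these cell types in the members' values was not tested. The summed germ cell level was lower in Mps1sKO 2 than in Mps1sKO 1, whereas the members' summed level was lower in Mps1sKO 1 (6805 CPM) than in Mps1sKO 2 (7652 CPM) and stood at 7590 and 7525 CPM in the controls.

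The other cell types showed smaller or mixed values. The median log2 fold change was 0.18 over 6 Leydig markers (0.03 to 0.17 with 1 library left out), -0.09 over 4 peritubular myoid markers (-0.14 to -0.05) and -0.14 over 4 macrophage markers (-0.21 to 0.05). It was 0.08 over 4 endothelial markers (-0.01 to 0.16) and 0.08 over 5 red blood cell markers (-0.11 to 0.12). Left-out libraries turned the sign for macrophage and red blood cell markers (Mps1sKO 2) and for endothelial markers (Mps1sKO 1), and the Leydig median was 0.03 without Mps1sKO 1. Skeletal muscle markers summed to 4.0 to 6.1 CPM, with 4 of 5 tested and a median of 0.16, which was -0.17 without control 1 and -0.08 without Mps1sKO 1. Of 3 heart muscle markers 2 were tested, with a median of 0.02 (-0.04 to 0.07 with 1 library left out), and *Nppa* had at most 2 counts in a library. Of 5 adipocyte markers 2 were tested, with log2 fold changes of -2.34 (*Fabp4*) and 0.59 (*Plin1*), and *Lep* had 0 counts in all libraries. Of 3 brown adipocyte markers 2 were tested, with a median of 0.04 (-0.29 without Mps1sKO 2 and 0.24 without Mps1sKO 1), and *Ucp1* was at 0.223, 0.139, 0 and 0.037 CPM.

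The members that could not be tested, or whose counts are shared, limit the account of single genes. Besides *Cox8b*, the untested members were *Ndufs3* (0, 0, 1 and 0 counts), a second row of *Atp5o* with 0 counts, and the pseudogenes *Cox6c2* and *Ndufa11b*, with at most 4 counts in a library. *Ndufs3* encodes a core subunit of complex I. An unannotated locus at the same position on a patch scaffold carried the protein domain of that subunit and had 178, 215, 141 and 210 counts, with a log2 fold change of -0.01, so reads of *Ndufs3* may stand in that row. Among the names left out for -ps, *Ndufb1-ps* had 733, 918, 644 and 682 counts (log2 fold change -0.15) and *Ndufab1-ps* had 225, 236, 320 and 246 counts (0.47, edgeR adjusted p = 0.542). The latter is an annotated processed pseudogene and may share reads with *Ndufab1*. Exons of 32 of the 97 distinct member names overlapped exons of another gene in GENCODE M21. The overlap with a single other gene was at least 20% of the exon bases for the second row of *Atp5o* and for *Ndufaf2* (65.6%), *Ndufb6* (39.0%) and *Ndufa13* (30.0%), the last 3 with a gene on the opposite strand. Overlaps with several genes were not summed. The main row of *Atp5o* shared 12.3%, 17.5% and 18.1% of its exon bases with other loci. Whether counting used strand was not given in the sources used here, so reads of such pairs may not be told apart.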

How the data were processed

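RNA was taken from whole testes at P10, and libraries were made with a NEBNext Ultra kit and sequenced on an Illumina NovaSeq platform. Per the submitters' processing notes, HISAT2 2.0.5, featureCounts and DESeq2 1.16.1 were used with genome build mm10. The annotation and the strand setting of the counting were not given in the sources used here. The authors deposited 1 table with raw counts, FPKM values and a gene length for each locus; the FPKM values were used only for an alternative ratio of the testis forms, and gene length for levels per kb.

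Differences in the counts were fitted in R 4.3.3 by edgeR 4.0.16 (filterByExpr, TMM, quasi-likelihood F test on genotype, two-sided), with Benjamini-Hochberg adjustment over all 20561 tested loci. The common biological coefficient of variation was 0.106. DESeq2 1.42.0 and limma-voom (limma 3.58.1) were alternatives, and the fits were tested on simulated data first. Groups came from the genotype labels, with 2 libraries in each. The members, the lists of genes (mitochondrially encoded subunits, assembly factors, carriers, TCA cycle, glycolysis, testis forms of energy enzymes, regulators and cell type markers) and the tests were chosen with earlier results of these data known. Genes were named with values if they were a tissue form or its common counterpart, had an adjusted p below 0.05, were among the 5 lower or 5 higher members with the smallest p, or had the highest or lowest level per kb of a complex; of the lists, the genes with extreme log2 fold changes or the smallest p were named. Genes named outside this rule, such as *Ndufs6*, *Sdha*, *Uqcr11* and *mt-Co2*, were chosen after their values were seen. Promoters came from RefSeq (GRCm38.p6), which shares mm10 coordinates, and were matched by symbol.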

Additional observations from a re-analysis of the deposited data

How the results depend on the processing

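With 2 libraries in each group, 1 library could decide a value. A first set of alternatives held DESeq2, DESeq2 size factors, library size only, limma-voom and a minimum of 10 counts in every library. These kept 0 members at an adjusted p below 0.05 and had 5 to 7 members lower at an unadjusted p below 0.05. Over all loci, the share lower was 1.69% with DESeq2, which also fitted loci with low counts, and 5.23% to 6.25% with the others. With no filter on low counts, 2 members passed the adjusted threshold (*Cox8c* with adjusted p = 0.0286 and *Uqcr11*), 15 were lower and 2 were higher at an unadjusted p below 0.05. Over all loci this fit made 390 adjusted calls (1.11%), with 4.80% lower and 3.72% higher, against 6 adjusted calls with the filter. With 1 library left out, 0 to 2 members passed the adjusted threshold, 3 to 28 were lower and 0 to 3 were higher at an unadjusted p below 0.05, and the median log2 fold change ran from -0.14 (without Mps1sKO 2) to 0.0075 (without Mps1sKO 1). The cause was not tested, but these fits hold 3 libraries. Over all loci, the share lower was 5.55% without control 1, 2.28% without control 2, 6.99% without Mps1sKO 1 and 5.62% without Mps1sKO 2. The share higher was 4.43%, 1.49%, 5.81% and 3.74% in the same order. The share past the adjusted threshold was 0.927%, 0.319%, 0.0791% and 0.163%. Each fit leaves 1 library in a group, so these counts and shares are a description only.

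The replicate numbers are shared by the groups, but the methods name no pairs, so the main fit did not take the numbers as pairs. The deviations of same-numbered libraries had a correlation of -0.19. With 2 libraries in each group, this value cannot decide whether they are pairs. With the replicate number as a block, 6 members were lower and 0 higher at an unadjusted p below 0.05. The shares over all loci in that fit were 3.34% and 1.72%. It had 0 members past the adjusted threshold, a median of -0.07 and a log2 fold change of -0.00043 for *Cox4i2*. The crossed pairing, chosen after seeing the data, gave 21 lower, 3 higher and 0 adjusted calls among the members, and 9.32% lower, 9.13% higher and 550 adjusted calls over all loci.

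Of 323 alternative values of 27 named members, 305 kept their direction and their side of the threshold, 17 changed sign and 1 passed the threshold (*Cox8c* without the filter). With library size only, *Atp5b* was at -0.00295 and *Cox4i2* at -0.0085. With 1 library left out, the log2 fold change ran from -0.19 to 0.091 for *Atp5a1*, -0.082 to 0.11 for *Atp5b*, -0.25 to 0.022 for *Cox4i1*, -0.28 to 0.24 for *Cox4i2*, -0.55 to 0.24 for *Cox6b2*, -0.13 to 0.18 for *Cox7b*, -0.16 to 0.043 for *Ndufa4*, -0.16 to 0.11 for *Ndufb2*, -0.18 to 0.046 for *Uqcr10* and -0.13 to 1.09 for *Uqcrc1*. The log2 ratio difference of *Cox6b2* to *Cox6b1* ran from -0.454 to 0.251, that of *Cox8c* to *Cox8a* from -1.55 to -0.494 and that of *Cox7b2* to *Cox7b* from -0.596 to -0.251.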
